A study of Bos taurus with 35 samples.

Results

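Muscle and omental fat of Hanwoo cattle, a Korean beef breed, were compared by RNA sequencing. All 17 of the 34 libraries read here that the labels give as muscle or omental fat were used, 8 of muscle and 9 of omental fat. They came from 9 animals of 30 months, numbered here as replicates 1 to 9, and 8 animals had a library of both tissues. Replicate 7 had none of muscle. The labels called replicates 1, 4 and 7 female, replicates 2, 5 and 8 castrated male and replicates 3, 6 and 9 male, while the study's methods describe the animals as steers. No genotype or treatment set the groups apart. Omental fat was taken at the lesser curvature of the abomasum and muscle from the rib section. Each library held poly(A) RNA of a whole piece of tissue, so fewer cells of a type and less RNA per cell cannot be told apart.

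Skeletal muscle is built of long multinucleate fibres filled with contractile filaments, and its transcripts are dominated by the proteins of these filaments and by the enzymes that supply them with energy. Omental fat is a visceral depot of lipid-filled adipocytes, which make and store triglyceride. Immune cells, vessels, fibroblasts and a mesothelial cover lie among these adipocytes. A comparison of these tissues asks how differently each divides its transcripts over the same set of genes, and which genes part them.

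The tables give genes by Ensembl identifier only. A name could be given to 31 genes, those of the study's qRT-PCR primer list, which pairs each identifier with a symbol. The study chose most of these genes for differences between fat depots, with the omental libraries in use, so the share of them that differed here is no independent evidence. None of 12 markers of muscle fibres and none of 10 markers of adipocytes set for this work had a name in the tables. The tissue labels could be checked only against TPM2, DUSP27 and EEF1A2 on the side of muscle and FASN and DGAT2 on the side of fat, and for each of these 5 genes the libraries lay on the side that the labels give, without overlap. The primer pairs below are those of 4 genes on which the results turn. They are shown because they are the only sequence in the sources used here that says which transcript a name stands for, and each is written 5′ to 3′.
DUSP27 forward: ggtcaaggaagatgaggatgagg
DUSP27 reverse: cagggaggagaaggtgtctgttt
ZIC1 forward: aaaaggacgcacacagggga
ZIC1 reverse: gcaaagatagggcttgtcgct
FASN forward: gtgcgtcctggtgtctaacctc
FASN reverse: ctcctcgggcttgtcttgttc
TCF21 forward: aacccgagagtgacctgaaagaa
TCF21 reverse: agggggaagcagagacagagag

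Between 3726376 and 6612376 counts fell on the 24596 listed genes in a muscle library (median 5404697.5) and between 4187267 and 6141691 in an omental library (median 5389329). Of all counts, with the lines that name no gene included, 30.6% to 36.7% fell on genes in muscle libraries and 29.8% to 33.7% in omental libraries. Across the 12878 genes tested below, the Pearson correlation of log2(CPM + 1) was 0.895 to 0.979 between muscle libraries, 0.905 to 0.975 between omental libraries and 0.545 to 0.676 between a muscle and an omental library. CPM is the count per 1e6 counts on genes with TMM scaling, and genes are not independent replicates of such a correlation. The first principal component of the same values held 82.1% of the variance. Muscle libraries scored from 69.6 to 123.8 on it and omental libraries from -99.9 to -90.5.

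A pair of muscle libraries needed care before the results. Muscle replicate 8 was the muscle library nearest to omental fat, with a median correlation of 0.650 with the omental libraries and of 0.913 with the other muscle libraries, and it had the lowest score of the muscle libraries on the first component (69.6). The next lowest score was 99.3, in replicate 5. Muscle replicate 4 was a muscle library by every measure, but its animal was in doubt. In all fat libraries of the series, 5 genes had at most 1 count in each of the 9 libraries from animals labelled female and at least 10 in each of the 17 others. The muscle library of replicate 1, labelled female, held 1 count on these 5 genes in all, whereas that of replicate 4, also labelled female, held 599. The other 6 muscle libraries, of animals labelled male or castrated male, held 425 to 901.

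A second set of genes also set the library of replicate 4 apart. It held 34 genes that varied between animals in the same way in omental and subcutaneous fat, chosen without the muscle libraries (correlation above 0.9 over the 9 animals, SD above 0.7 on the log2 scale and a mean above 2 CPM). Over these 34 genes, 7 muscle libraries correlated best with the omental library of their own animal, with r from 0.523 to 0.743. Muscle replicate 4 had an r of -0.113 with its own omental library and of 0.264 with the nearest one, replicate 9. Its tissue was not in question, so it was kept in the comparison of tissues, and the main results are also given without it. The library's true animal was not sought.

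**Figure D1:**
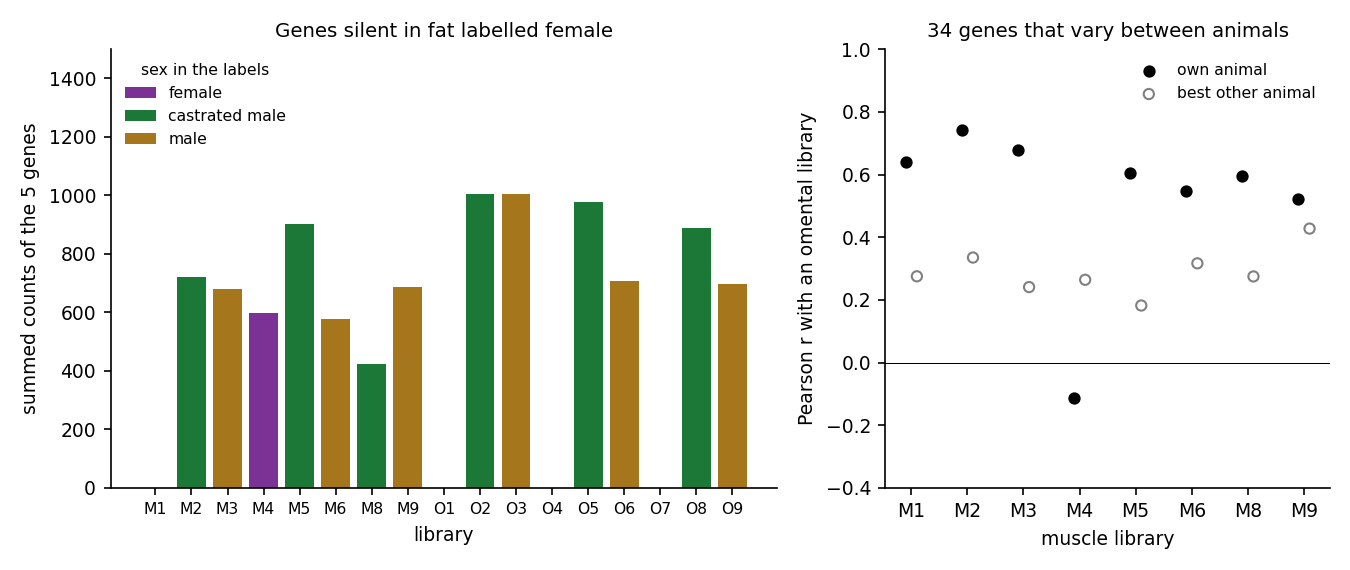
Left, bars give the summed counts of 5 genes that were at or near 0 in all fat libraries labelled female, for each muscle (M) and omental (O) library, coloured by the sex in the labels. Right, Pearson r across 34 genes of each muscle library with the omental library of its own animal (filled) and with the most similar omental library of another animal (open). M4 holds 599 counts in the left plot and has the only negative value in the right plot, -0.113.

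Muscle placed its transcripts on far fewer genes than omental fat. The most counted gene of a library took 3.11% to 4.50% of the counts on genes in muscle (median 3.54%) and 0.974% to 1.62% in omental fat (median 1.30%). The 10 most counted genes took 16.5% to 22.4% in muscle (median 18.4%) and 5.39% to 6.78% in omental fat (median 6.20%). The 100 most counted genes took 39.2% to 49.9% and 19.9% to 24.5%, with medians of 45.7% and 20.9%. The ranges of the tissues did not overlap in any of these shares.

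The same held at the middle of the distribution. The number of genes that together held 50% of the counts ranged from 102 to 278 in muscle (median 156) and from 659 to 936 in omental fat (median 851). The highest value in muscle was that of replicate 8, and the next highest was 204. The effective number of genes, the exponential of the Shannon entropy of the shares, was 984.0 to 1759 in muscle (median 1296) and 3493 to 4361 in omental fat (median 4141). When each library was reduced by calculation to 3726376 counts, the depth of the smallest, 14083 to 15176 genes were detected in muscle (median 14424) and 15443 to 15937 in omental fat (median 15788). Even the omental library with the fewest genes detected exceeded the muscle library with the most.

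The spread was compared within the 8 animals with an exact two-sided sign-flip permutation test, adjusted over 7 measures. The 10 most counted genes took 12.6 percentage points more in muscle than in omental fat of the same animal (SD 2.39, n = 8). The number of genes that held 50% of the counts differed between muscle and omental fat by a mean of -668 (SD 83.7, n = 8), and the number detected at equal depth by a mean of -1298 (SD 374, n = 8). All 7 measures differed in the same direction in 8 of 8 animals, with an adjusted p = 0.00781 each in the exact permutation test, the smallest that 8 pairs allow. Without replicate 4, all 7 measures kept their direction in the other 7 animals, with p = 0.0156 in the exact permutation test, the smallest that 7 pairs allow. The difference in the number of genes that held 50% of the counts was then -653, and it was -682 without replicate 8.

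The wider spread between genes in muscle was also seen on the log scale. The SD of log2(CPM + 1) over the 12878 tested genes was 2.09 to 2.32 in muscle and 1.81 to 1.93 in omental fat, and the mean difference within animals was 0.39 (SD 0.071, n = 8). A muscle library had 7 to 13 genes at 10000 CPM or more without TMM scaling (median 9.5), which together held 13.8% to 24.4% of its counts. An omental library had 0 or 1 such gene. At 1000 such CPM or more, the numbers of genes overlapped, with 93 to 104 in muscle and 83 to 106 in omental fat, but these genes held 38.5% to 50.1% of the counts in muscle and 18.5% to 25.1% in omental fat. At 10 or more the order was reversed, with 6942 to 8389 genes in muscle and 9507 to 10158 in omental fat. By these shares of counts without TMM scaling, muscle thus had more genes at the very top and fewer at 10 or more. Because TMM factors were lower in muscle, the cutoff of 10 was stricter for muscle on the scaled level. The numbers of genes on that level were not taken.

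**Figure D2:**
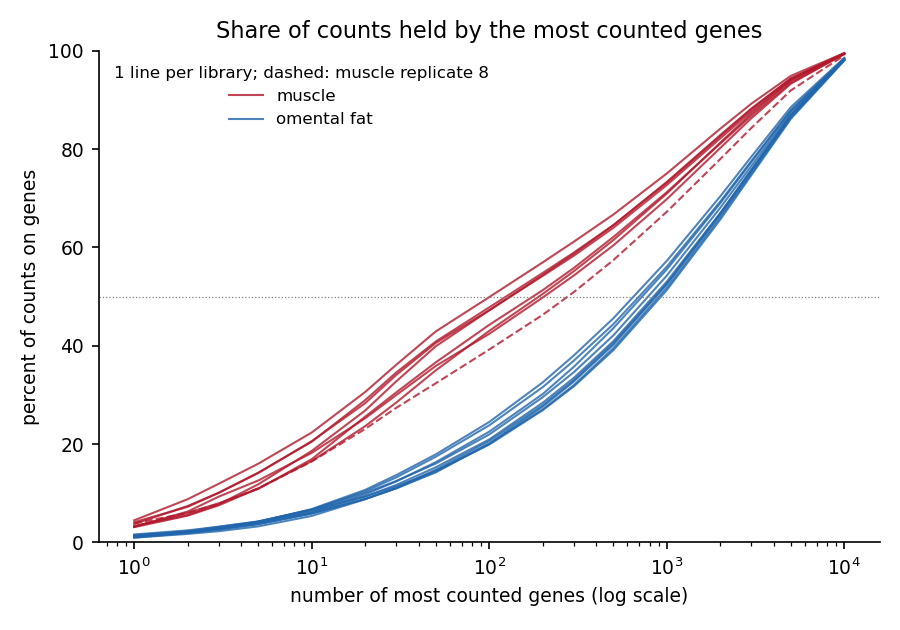
Cumulative percent of the counts on genes (vertical axis) held by the most counted genes of each library (horizontal axis, log scale), with 1 line per library, muscle in red and omental fat in blue. The dotted line marks 50%, which muscle libraries reach with 102 to 278 genes and omental libraries with 659 to 936, and the dashed line is muscle replicate 8.

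The most counted genes of the tissues were different genes. The 10 genes with the highest mean share of counts were listed for each tissue, and likewise the 100 and the 1000. The lists of 10 shared 0 genes, those of 100 shared 13 (13 of 100 of each list) and those of 1000 shared 483. Of the 10 genes of muscle, 10 were called higher in muscle, against 29.9% of all genes tested. These 10 took 14.6% to 21.3% of the counts of a muscle library and 0.166% to 0.497% of those of an omental library. The 10 genes of omental fat took 5.23% to 6.61% of the counts of an omental library and 0.410% to 0.979% of those of a muscle library. Of these, 9 of the 10 were called higher in omental fat, against 33.5% of all genes tested. The lists were ranked on these same libraries, so their counts of calls describe the lists and test nothing further. By the mean share of counts, which also grows with transcript length, TPM2 held rank 3 in muscle and was the only one of the 10 most counted genes of either tissue with a name. FASN held rank 12, ACTB rank 14 and DGAT2 rank 18 in omental fat.

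Of 12878 genes with enough counts, 8163 (63.4%) differed between muscle and omental fat at a Benjamini-Hochberg FDR under 0.01 in the quasi-likelihood test of edgeR. Of these, 3847 (29.9% of the genes tested) were higher in muscle and 4316 (33.5%) in omental fat. The values of the 8 muscle and 9 omental libraries did not overlap for 4510 genes (35.0%), with muscle above for 2021 (15.7%) and below for 2489 (19.3%). Without muscle replicate 4, 8003 genes were called, among them 7846 of the 8163. Without muscle replicate 8, 8658 were called, 4006 higher in muscle and 4652 higher in omental fat. With the animal as a block, 8099 were called (62.9%), 7803 of them also called without the block.

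The differences were large in both directions. The median absolute log2 fold change was 0.89 over all genes tested and 1.42 over those called. Genes called higher in muscle had a median log2 fold change of 1.28 and those called higher in omental fat of -1.53. A change of at least 2-fold was seen for 2476 genes higher in muscle and 3266 higher in omental fat, and of at least 10-fold for 493 and 649. At 100-fold or more the order turned, with 214 higher in muscle and 60 in omental fat, where fitted changes against a tissue with few counts depend on the constant edgeR adds to each count. Among 24596 genes, 14 had 0 counts in every omental library and at least 10 in every muscle library, and 15 showed the reverse.

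The direction of the calls changed with abundance. The genes tested were ordered by mean abundance and divided into 4 bins of equal size. In the lowest bin, 13.9% were called higher in muscle and 43.5% in omental fat. In the second bin the shares were 24.5% and 35.7%, and in the third 34.0% and 28.7%. In the highest bin, 47.1% were called higher in muscle and 26.2% in omental fat. The median log2 fold change ran from -0.64 in the lowest bin to 0.41 in the highest. Precision also differed, with a median SE of 0.29 in the lowest bin and 0.18 in the highest. The count filter was applied before TMM scaling, whose factors were lower in muscle (0.609 to 0.895) than in omental fat (1.26 to 1.42). A gene high in omental fat could therefore pass at a lower scaled level than a gene high in muscle. The part of this in the lean of the lowest bin was not tested.

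**Figure D3:**
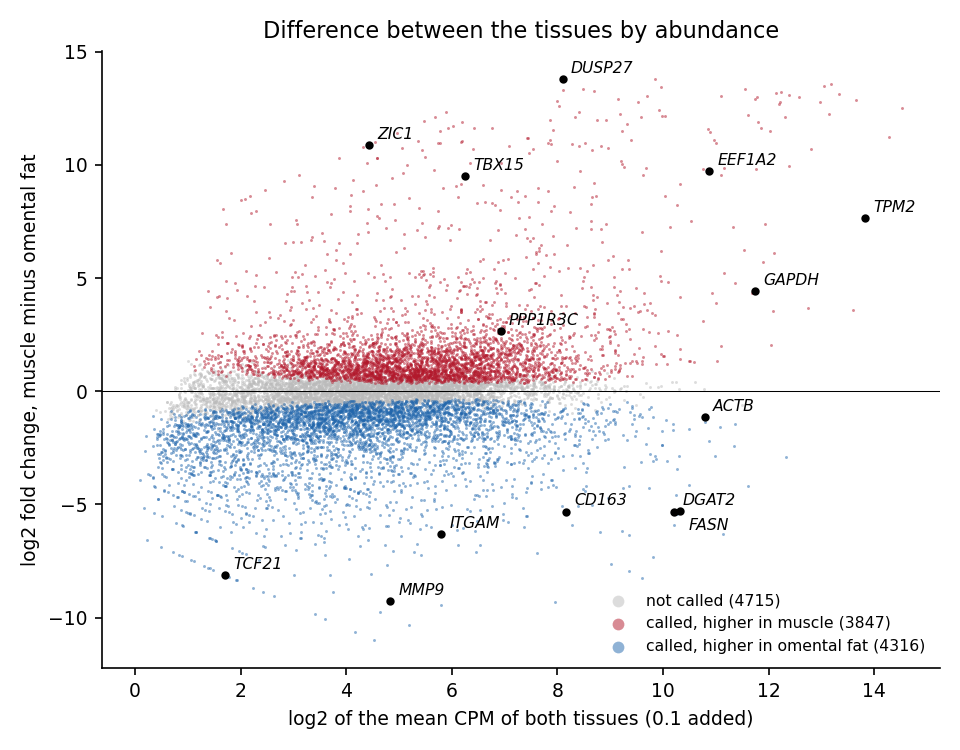
Log2 fold change of muscle minus omental fat (vertical axis) against the log2 of the mean CPM of both tissues with 0.1 added (horizontal axis) for 12878 genes, 1 point per gene. Red points are the 3847 genes called higher in muscle, blue points the 4316 called higher in omental fat and grey points the 4715 not called, and black points are named genes.

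Genes that were not called are not shown to be equal. Of the 4715 genes that were not called, 999 had a 95% interval of the log2 fold change within 0.5 of 0, and 1005 had an interval that reached past a 2-fold change in at least one direction. All 8 animals had the direction of the fit for 3097 of the 3847 genes called higher in muscle and for 3756 of the 4316 called higher in omental fat. Over the 7 animals without replicate 4 the numbers were 3128 and 3787. Animal by animal, 96.4% to 99.3% of the genes called higher in muscle and 97.9% to 99.5% of those called higher in omental fat followed the fit in 7 animals. In replicate 8 the shares were 88.7% and 94.5%. Since the calls rest on the same values, the shares are a description and not a test.

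The calls also divided the counts of each library. Genes called higher in muscle held 66.0% to 81.2% of the counts of a muscle library and 21.3% to 22.5% of those of an omental library. Genes called higher in omental fat held 49.0% to 52.4% of the counts of an omental library and 5.88% to 13.8% of those of a muscle library. Muscle replicate 8 was at the omental end of both ranges in muscle, with 66.0% and 13.8%. The other muscle libraries had at least 75.9% and at most 8.47%. It had the lowest DGAT2 of the muscle libraries (17.4 CPM) and FASN at 49.2 CPM, and of the 4 named myeloid markers, CD163 was the highest of the muscle libraries (27.9 CPM), ITGAM was within their range (1.80 CPM) and CCR2 and MMP9 had 0 counts. The library of muscle replicate 8 also had the fewest counts on genes of the muscle libraries (3726376). Its share of all counts that fell on genes was the lowest of them (30.6%, next 32.5%). Its share of reads with more than one place was the highest of them (14.5%, next 11.3%). What it shares with omental fat was not traced to a cell type with the names at hand, and the part of these library traits was not tested.

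**Figure D4:**
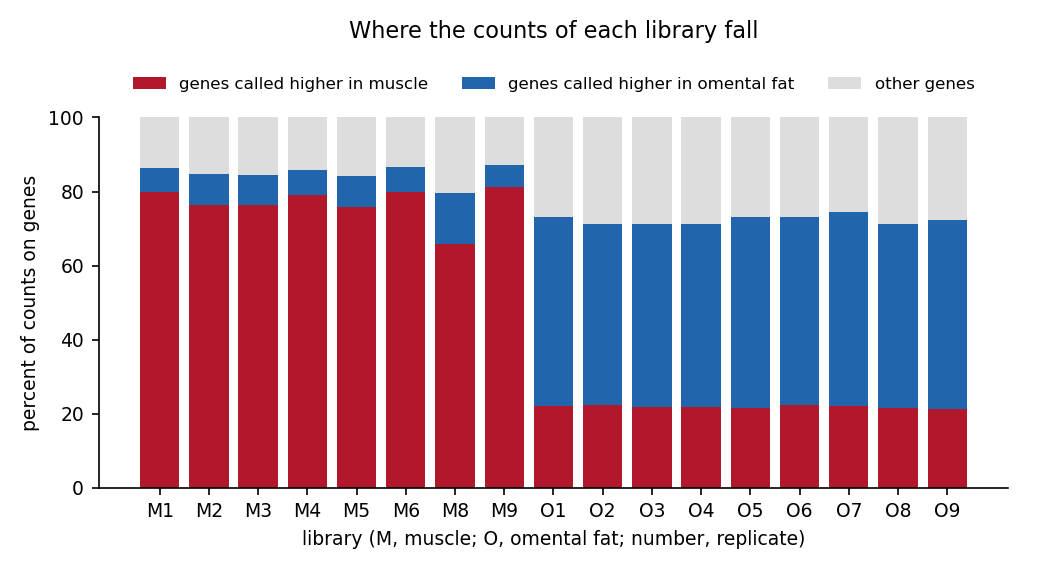
Stacked bars give the percent of the counts on genes of each library (M, muscle; O, omental fat; number, replicate) that fell on genes called higher in muscle (red), genes called higher in omental fat (blue) and all other genes (grey). Omental libraries have 21.3% to 22.5% on red genes, and M8 has 66.0% on red and 13.8% on blue genes.

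The scaling of the libraries moved every fold change. TMM factors were 0.609 to 0.895 in muscle, with replicate 8 the highest and 0.761 the next, and 1.26 to 1.42 in omental fat. With them the median log2 fold change over all genes tested was -0.06. With library sizes only, the median moved to -0.96, and 1564 genes were called higher in muscle and 8039 in omental fat, so that the share of calls higher in muscle fell far below the 47.1% seen with TMM. Changes below are relative to TMM scaling.

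The spread between animals was larger in muscle than in omental fat by estimate. The coefficient of variation between animals, estimated in common for all genes tested, was 34.4% in muscle and 27.4% in omental fat, and 10751 of 12878 genes had the larger estimate in muscle. It was 35.8% in muscle without replicate 4 and 29.1% without replicate 8. Most of the gap between the tissues thus rested on this 1 library, and without it 9074 of the 12878 genes had the larger estimate in muscle. Leaving out each omental library in turn gave 25.7% to 28.6%. The difference between the tissues was not tested.

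Of the 31 named genes, 21 passed the count filter. Among them, 7 were called higher in muscle, 12 were called higher in omental fat and 2 were not called, against 29.9% and 33.5% of all genes tested. The ranges of the tissues did not overlap for 14 of the 21, against 35.0% of all genes tested. All 8 animals had the same direction for 17, against 55.3% of all genes tested. The values below are CPM in the lowest, the median and the highest library of a tissue. Log2 fold changes are muscle minus omental fat, with adjusted p from the quasi-likelihood test of edgeR over all genes tested.

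TPM2, GAPDH and PPP1R3C were higher in muscle. TPM2 (ENSBTAG00000011424) encodes beta-tropomyosin, a strand of the thin filament that gates the binding of myosin to actin. Its level was 19496, 26057 and 44222 CPM in muscle and 90.9, 140.3 and 220.0 CPM in omental fat. The tissues were thus far apart in every library, with a log2 fold change of 7.63 (SE 0.31, adjusted p = 7.7e-15, edgeR). TPM2 was 1 of 15 thin filament genes set for this work that had a name. GAPDH (ENSBTAG00000014731), the glycolytic enzyme that is often used as a reference gene, reached 3795, 5615 and 11197 CPM in muscle and 218.1, 298.3 and 427.9 CPM in omental fat. Its log2 fold change was 4.42 (SE 0.26, adjusted p = 5.0e-12, edgeR), and it was higher in muscle in 8 of 8 animals. PPP1R3C (ENSBTAG00000014831), a subunit that targets protein phosphatase to glycogen, was at 86.0, 226.9 and 317.4 CPM in muscle and at 26.1, 32.2 and 48.5 CPM in omental fat. It was 6.24-fold higher in muscle (SE 0.22 on the log2 scale, adjusted p = 1.2e-09, edgeR), the smallest change of the 7 named genes that passed the filter and were called higher there. GAPDH and PPP1R3C were the 2 of 21 genes of glycogen and glycolysis with a name, and both were called higher in muscle, against 29.9% of all genes tested.

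DUSP27 and EEF1A2 had large changes toward muscle. DUSP27 (ENSBTAG00000008652) encodes an atypical dual-specificity phosphatase family member of striated muscle. Its level in muscle was 342.4, 569.0 and 699.1 CPM, and the 9 omental libraries held 1 count in all. The ratio of the levels was 35133 with an exact counting interval of 6305 to 1387771, and the adjusted p was 1.3e-17 (edgeR). The 1 count was in omental replicate 6, and without this library DUSP27 was at least 10544-fold higher in muscle over a floor of 3 counts. Among the genes called with the same direction in all 8 animals and a mean of at least 10 CPM in the higher tissue, DUSP27 and ENSBTAG00000006733 had the largest fitted log2 fold changes toward muscle. Their order was not stable, with 13.80 and 13.78 in edgeR, 14.08 and 14.09 in DESeq2, and 13.74 and 14.28 in edgeR without replicate 3. The fitted value of DUSP27 was 14.52 without replicate 6, where it rests on 0 omental counts and is no bound. EEF1A2 (ENSBTAG00000021685) encodes the form of translation elongation factor 1 alpha that replaces the widespread form in adult muscle and neurons. It was at 2201, 3820 and 4893 CPM in muscle and at 0.810, 3.55 and 12.5 CPM in omental fat, a log2 fold change of 9.73 (SE 0.44, adjusted p = 6.5e-14, edgeR). Its lowest muscle library was above its highest omental library by a wide margin.

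ENSBTAG00000006733 was at 443.7, 1928 and 2524 CPM in muscle and at 0, 0 and 0.394 CPM in omental fat, with an adjusted p of 3.1e-15 (edgeR). ENSBTAG00000018204 was at 1801, 17983 and 42070 CPM in muscle and at 0, 1.05 and 4.69 CPM in omental fat, with an adjusted p of 1.2e-10 (edgeR). Both were higher in muscle in 8 of 8 animals. ENSBTAG00000018204 also varied widely between muscles, with a coefficient of variation of 83.0%, and took 0.133% to 2.88% of the counts of a muscle library. Among the 12 genes furthest to each side, 11 had no name here on the side of muscle, and 11 on the side of omental fat.

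TBX15 and ZIC1 were higher in muscle and TCF21 in omental fat, and all encode transcription factors that mark position along the body. Such factors pattern the embryo, and many stay on in the adult in the tissues of their region. Of 16 such genes set for this work, 7 had a name and 4 passed the filter. TBX15 (ENSBTAG00000007767), a T-box factor, was at 39.9, 163.2 and 265.8 CPM in muscle and at 0, 0.158 and 0.469 CPM in omental fat, a log2 fold change of 9.49 (SE 0.46, adjusted p = 1.9e-13, edgeR). ZIC1 (ENSBTAG00000014751), a zinc finger factor, was at 20.5, 34.6 and 98.9 CPM in muscle and had 0 counts in all 9 omental libraries. It was at least 871-fold higher in muscle against a floor of 3 counts over the omental libraries (adjusted p = 3.1e-09, edgeR).

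TCF21 showed the reverse of ZIC1. TCF21 (ENSBTAG00000021827), a basic helix-loop-helix factor of visceral mesoderm, had 0 counts in all 8 muscle libraries and was at 4.53, 6.35 and 9.51 CPM in omental fat. It was at least 61.1-fold higher in omental fat against a floor of 3 counts over the muscle libraries (adjusted p = 2.5e-09, edgeR). EN1 (ENSBTAG00000021494), a homeobox factor, overlapped, with 2.78, 5.39 and 6.31 CPM in muscle and 0.673, 2.38 and 7.66 CPM in omental fat. Its log2 fold change was 0.61 with a 95% interval from -0.16 to 1.37 and did not pass the test (adjusted p = 0.144, edgeR). Its sign turned to -0.29 with library sizes only. LHX8 had 0 counts in all 17 libraries, and TBX5 had at most 2 in any of them.

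FASN and DGAT2 were higher in omental fat. FASN (ENSBTAG00000015980) encodes fatty acid synthase, which builds palmitate. Its level was 43.0, 54.9 and 109.6 CPM in muscle and 1055, 2168 and 4610 CPM in omental fat, a log2 fold change of -5.29 (SE 0.32, adjusted p = 7.7e-12, edgeR). DGAT2 (ENSBTAG00000001154) encodes an enzyme of the last step of triglyceride synthesis. It was at 17.4, 43.0 and 191.4 CPM in muscle and at 1323, 2196 and 4002 CPM in omental fat, a log2 fold change of -5.31 (SE 0.47, adjusted p = 2.4e-09, edgeR). No muscle library reached an omental one for either gene, and the difference held in 8 of 8 animals. The highest DGAT2 level in muscle was in replicate 2, and the next was 68.9 CPM. FASN was the 1 of 16 genes of fatty acid synthesis with a name, and DGAT2 the 1 of 14 genes of triglyceride synthesis and the lipid droplet.

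CD163, ITGAM, MMP9 and CCR2 were also higher in omental fat. Of 16 markers of macrophages and other myeloid cells set for this work, 4 had a name and passed the filter, and all 4 were called higher in omental fat, against 33.5% of all genes tested. CD163 (ENSBTAG00000019669), the haemoglobin scavenger receptor of macrophages, was at 3.47, 13.1 and 27.9 CPM in muscle and at 266.8, 574.5 and 879.4 CPM in omental fat. Its log2 fold change was -5.32 (SE 0.37, adjusted p = 7.0e-11, edgeR). ITGAM (ENSBTAG00000047238), an integrin chain of myeloid cells, was at 0.370, 1.36 and 2.52 CPM in muscle and at 38.7, 114.9 and 197.6 CPM in omental fat, a log2 fold change of -6.30 (SE 0.42, adjusted p = 3.3e-11, edgeR). Neither gene overlapped between the tissues.

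MMP9 (ENSBTAG00000020676), a gelatinase of neutrophils and macrophages, had 2 counts over the 8 muscle libraries and was at 7.77, 33.9 and 166.2 CPM in omental fat. The ratio of the levels was 789.7 with an exact counting interval of 218.5 to 6524 (adjusted p = 2.2e-08, edgeR). Muscle replicates 3 and 9 held 1 count each, and the ratio was 1351 without the former and 1360 without the latter. MMP9 was the only named gene among the 12 furthest to the side of omental fat. CCR2 (ENSBTAG00000013586), a chemokine receptor of monocytes, was low in both tissues, with 0, 0.294 and 1.27 CPM in muscle and 1.22, 2.52 and 4.97 CPM in omental fat. Its log2 fold change was -2.95 (SE 0.48, adjusted p = 1.3e-05, edgeR), and it was lower in muscle in 8 of 8 animals although the ranges overlapped slightly. CCL2 (ENSBTAG00000037811), the ligand of this receptor, was at 8.93, 20.2 and 38.9 CPM in muscle and at 16.8, 38.5 and 113.9 CPM in omental fat. The tissues overlapped, and CCL2 was higher in omental fat in 6 of 8 animals. Its log2 fold change of -1.03 (SE 0.33, adjusted p = 0.00862, edgeR) lost the call without muscle replicate 4 (adjusted p = 0.0170), without muscle replicate 8 (adjusted p = 0.0164) with RLE factors (adjusted p = 0.0103) and with the animal as a block (adjusted p = 0.0104), and also with all libraries of replicate 1, 2, 6, 7, 8 or 9 left out (adjusted p from 0.0119 to 0.0358). With the block and without both libraries of replicate 4, the call held (log2 fold change -0.96, adjusted p = 0.00641, edgeR). The part of myeloid cells in the differences between the tissues was not tested.

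By the same rule as for DUSP27, the 2 genes without a name and with the lowest fitted log2 fold changes had 0 counts in muscle, so their order rests on lower bounds. ENSBTAG00000000066 was at 3.24, 35.5 and 96.2 CPM in omental fat and had 0 counts in all 8 muscle libraries, so that it was at least 452-fold higher against a floor of 3 counts over the muscle libraries. ENSBTAG00000009014 was at 2.84, 32.4 and 92.0 CPM and also had 0 counts in muscle. It was at least 350.5-fold higher in omental fat on the same floor. Both varied between animals in omental fat, with coefficients of variation of 70.3% and 73.7%.

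Apart from ACTB, 4 further named genes passed the filter, of which 3 were called lower in muscle and 1 was not called. ADAM23 (ENSBTAG00000019694), a cell surface protein of the disintegrin family, was at 0.921, 3.07 and 4.80 CPM in muscle and at 5.00, 15.3 and 23.9 CPM in omental fat. The ranges lay next to each other without overlap, with a log2 fold change of -2.36 (SE 0.29, adjusted p = 4.1e-07, edgeR). ERBB3 (ENSBTAG00000010444), a receptor of neuregulins, was at 4.30, 6.49 and 13.5 CPM in muscle and at 2.84, 32.3 and 78.6 CPM in omental fat, a log2 fold change of -2.20 (SE 0.41, adjusted p = 7.0e-05, edgeR). Its ranges overlapped. FGF7 (ENSBTAG00000004013), a growth factor that mesenchymal cells make for epithelia, was at 2.23, 3.87 and 10.5 CPM in muscle and at 5.00, 10.8 and 14.7 CPM in omental fat. It was lower in muscle in 8 of 8 animals, with a log2 fold change of -0.95 (SE 0.30, adjusted p = 0.00665, edgeR), and lost the call without muscle replicate 4 (adjusted p = 0.0159) and with both libraries of replicate 1, 2, 3, 4, 6 or 9 left out (adjusted p from 0.0122 to 0.0274). The call held with the animal as a block (adjusted p = 7.3e-04, edgeR), and with the block and without both libraries of replicate 4 (adjusted p = 0.00272). IGF2BP2, an RNA-binding protein, was not called, with a log2 fold change of 0.57 and a 95% interval from -0.04 to 1.19 (adjusted p = 0.0876, edgeR). Its sign also turned with library sizes only, to -0.33.

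ACTB and GAPDH, which often serve as reference genes, differed between these tissues in opposite directions. ACTB (ENSBTAG00000026199), cytoplasmic beta-actin, was at 738.4, 898.4 and 2287 CPM in muscle and at 1896, 2392 and 2987 CPM in omental fat. Its log2 fold change was -1.14 (SE 0.22, adjusted p = 1.2e-04, edgeR), against 4.42 for GAPDH. The ranges overlapped only through muscle replicate 8, the highest muscle library, and the next highest was at 1428 CPM. Replicate 8 was also the 1 of 8 animals in which ACTB was higher in muscle, and without it the log2 fold change was -1.37. ACTB and GAPDH kept these signs with library sizes only.

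**Figure D5:**
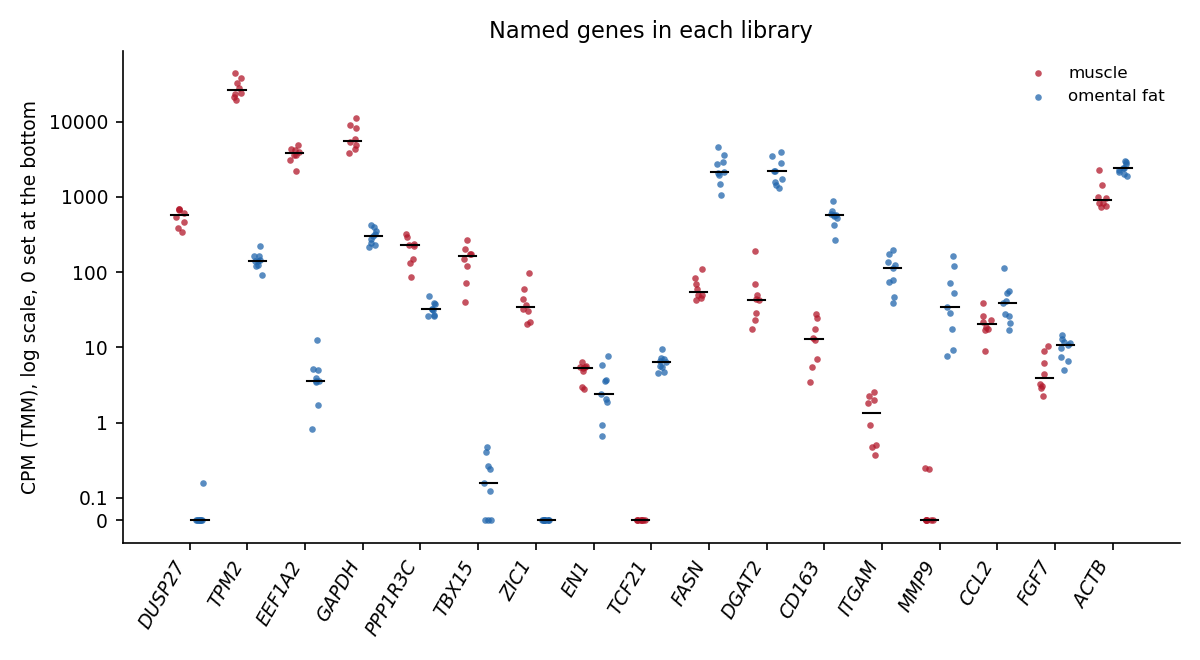
CPM with TMM scaling (vertical axis, log scale, with 0 set at the bottom) of 17 named genes in each of 8 muscle libraries (red) and 9 omental libraries (blue), with black lines at the medians. DUSP27, TPM2, EEF1A2, GAPDH, PPP1R3C, TBX15 and ZIC1 lie higher in muscle without overlap, TCF21, FASN, DGAT2, CD163, ITGAM and MMP9 lie higher in omental fat without overlap, and EN1, CCL2, FGF7 and ACTB overlap.

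The other 10 named genes were under the count filter, and they were tested in a fit of all 19149 genes with a count, in which 48.4% of the genes were called, 22.1% higher in muscle and 26.4% higher in omental fat. In that fit, 1 was called higher in muscle, 5 were called higher in omental fat, and SLPI, TBX5 and CYP17A1 were not called. LHX8 could not be tested. TNMD, a membrane protein of tendon, had 1 to 19 counts in a muscle library and 0 to 5 in an omental library, a log2 fold change of 2.75 (SE 0.63, adjusted p = 6.5e-04, edgeR). ISL1, a homeobox factor, had 0 counts in muscle and 2 to 44 in an omental library, at least 14.3-fold higher in omental fat over a floor of 3 counts (adjusted p = 3.1e-04, edgeR). Replicate 3 held 44 of its 95 omental counts, and the bound was 8.71-fold without this library. UCP1, the uncoupling protein of brown adipocytes, had 1 count over the 8 muscle libraries and 0 to 36 in an omental library. Its ratio was 37.0 with an exact counting interval of 6.46 to 1480.4, and 23.5 without omental replicate 2, which held 36 of the 82 omental counts. Without muscle replicate 8, which held the muscle count, UCP1 was at least 10.9-fold higher in omental fat over a floor of 3 counts. BDNF, a neurotrophin, had 2 counts in muscle and 1 to 47 in an omental library, a ratio of 41.8 with an interval of 11.4 to 347.5. Both muscle counts were in replicate 3, and without this library BDNF was at least 23.8-fold higher in omental fat over the same floor. STRA6, a receptor for retinol-binding protein, had 0 to 3 counts in a muscle library and 2 to 90 in an omental library (log2 fold change -4.01, SE 0.88, adjusted p = 3.8e-04, edgeR). Omental replicate 3 held 90 of its 170 omental counts, and the ratio of the summed levels was 19.2 with this library and 10.2 without it. Muscle replicate 3 held 3 of its 4 muscle counts, and the ratio was 65.7 without that library. MFSD2A, a lipid transporter, had 0 counts in muscle and at most 5 in an omental library. These intervals and floors cover counting error only.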

How the data were processed

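Paired-end libraries of poly(A) RNA were read from 8 muscle and 9 omental fat samples. The authors mapped them to bosTau6 with TopHat2 2.0.2 and counted them with HTSeq 0.5.3p3, per the submitters' processing notes and the study's methods. The deposited values are raw counts of 24596 Ensembl genes, without normalization. Another 5 lines name no gene. They held 63.3% to 70.2% of all counts and were left out of library sizes and tests. The strand setting of the counting is not given in the sources used here, so overlapping and antisense genes may share reads. Reads with more than one place (6.79% to 14.5%) were not counted on genes, which makes values of near-identical copies uncertain.

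Groups were taken from the sample labels. Genes were kept with filterByExpr (count minimum 10), library sizes were scaled with TMM, and tissues were tested with quasi-likelihood F tests (edgeR 4.0.16, R 4.3.3) without a term for the animal, at an FDR under 0.01. SE is the absolute log2 fold change over the square root of F. Alternatives used edgeR or DESeq2 1.42.0. Measures of spread were computed with numpy 2.4.6, pandas 2.3.3 and scipy 1.17.1 (Python 3.11.15) and compared within animals by flipping signs in all 256 ways. Plots used matplotlib 3.10.9.

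The labels tie same-numbered libraries to 1 animal. The deviations from the tissue mean of same-numbered libraries correlated at -0.083 (replicate 4) to 0.354 (median 0.141), against a median of -0.0068 between different animals. Over 64 pairs of libraries of 1 tissue, chi-square per degree of freedom was 12.0 or more, so no pair agreed within counting noise. Data were also simulated with the mean levels of the omental libraries for both tissues (12599 genes). Of the genes changed there, 51 of 97 changed 2-fold and 95 of 97 changed 4-fold were recovered, with 1 false call. Few genes were changed, by design as many up as down. The simulation therefore lacks the shift between the tissues that TMM scaling meets here, and cannot give the rate of false calls under it.

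Named genes were the 12 with the largest change in each direction with at least 10 CPM and the same direction in all 8 animals, the 10 most counted genes of each tissue, called members of lists and the primer list, with at most 2 unnamed identifiers in a direction. The comparison, lists and members were chosen with earlier results of these data known. Identifiers outside the primer list could not be paired with names from the tables used here, so most lists and all pairs of muscle and widespread isoforms were not analysed. Alternatives were the block, other tests, scalings, filters, thresholds, a sex covariate and left-out libraries. Muscle without replicate 8 was added after the data were seen.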

Additional observations from a re-analysis of the deposited data

Results flagged for a closer look

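A library far from the others of its tissue was looked for in 67 sets of 8 or 9 values, and 13 sets held one. For independent values of a normal distribution, chance flags about 1 set in 20. Many sets were CPM of single genes, some with few counts, for which this rate need not hold. Muscle replicate 8 accounted for 6 of the 13. Its SD of log2(CPM + 1) over genes was 2.09 (next 2.21), its share of counts on genes called higher in muscle 66.0% (next 75.9%) and its share on genes called higher in omental fat 13.8% (next 8.47%). It also had the highest ACTB (2287 CPM, next 1428), ERBB3 (13.5 CPM, next 7.07) and TNMD (5.70 CPM, next 2.59) of the muscle libraries. In muscle, DGAT2 was high in replicate 2 (191.4 CPM, next 68.9).

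In omental fat, replicate 3 was high in ERBB3 (78.6 CPM, next 38.3), STRA6 (11.8 CPM, next 2.55) and ISL1 (5.78 CPM, next 1.88). Replicate 2 was high in CCL2 (113.9 CPM, next 55.6) and UCP1 (4.82 CPM, next 1.99), and replicate 9 in EEF1A2 (12.5 CPM, next 5.09). The muscle library of replicate 4 held 599 counts on the 5 genes that were at or near 0 in all fat libraries labelled female, where the muscle library of replicate 1, also labelled female, held 1.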

How the results depend on the processing

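All 7 measures of spread over genes kept their direction and passed the test with each animal left out. The SD of log2(CPM + 1) was not run under the next settings. The other 6 held without the 10 most counted genes of either tissue and with thinned counts. Thinning was no test of genes detected, already taken at the common depth. With all lines as the denominator the shares of counts held, and the other measures do not use it. The mean difference in the share of the 10 most counted genes was 12.6 percentage points in the main comparison. It was 6.55 without the 10 most counted genes and 4.47 with all lines. For the most counted gene these values were 2.38, 0.896 and 0.844, and for the 100 most counted 23.9, 17.2 and 8.70. Genes detected also held in the counts as deposited. The count of called genes ranged from 7616 to 8394 with each animal left out, and was 8510 with DESeq2, 8436 with the likelihood ratio test and 8179 with RLE factors. With the replicate block, 8099 genes were called, and 7566 with the replicate block and without both libraries of replicate 4. Of the 21 named genes that passed the filter, the block ended the call of CCL2 only, which held with the block and without replicate 4. The 10 under the filter were not fitted with the block. Without TMM, 1564 genes were called higher in muscle and 8039 in omental fat, with a median log2 fold change of -0.96, and 129 calls had the opposite direction. With ACTB and GAPDH as the scale the numbers were 811, 9881 and -1.63, with 1050 opposite calls, and EN1 and IGF2BP2, not called with TMM, turned to -0.87 (adjusted p = 0.0325, edgeR) and -1.03 (called). This scale joins genes that moved in opposite directions. At least a 2-fold change left 2476 genes higher in muscle. A test against a 2-fold change (glmTreat of edgeR) called 3626 genes, 1571 higher in muscle and 2055 in omental fat. With 1 library left out, the variation between animals (CV) was 29.1% to 35.9% in muscle and 25.7% to 28.6% in omental fat. Over 34 genes, 608 of 634 values under alternatives kept direction and call, 22 lost the call (CCL2, FGF7 and, against a 2-fold change, ACTB) and 4 changed sign (EN1 and IGF2BP2, without TMM and with ACTB and GAPDH as the scale), 1 of them with a call. Depth limits genes with few counts. The cause of these changes was not tested.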
